A study of Homo sapiens with 9 samples.

Results

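The RNA of MEC1 cells bioprinted in a hydrogel scaffold and harvested at day 7 was compared with that of MEC1 cells grown in conventional flat culture (2D). MEC1 is an established B-cell line derived from chronic lymphocytic leukemia (CLL), a cancer of mature B lymphocytes. Of the 9 samples of the series, 6 belong to this comparison, 3 cultured in 2D and 3 bioprinted, and the other 3 were bioprinted and harvested at day 14. The 2D samples carry no time point, so that the length of time in culture could not be matched. Cells of both groups were given the same serum-containing medium, with no drug and no stromal cells, and those of the bioprinted group were mixed into a bioink, extruded by a printer and crosslinked with calcium before culture. All results come from a single cell line, and nothing in the labels says whether the 3 samples of a group came from separate cultures or scaffolds, so that p-values measure only the spread between these samples. RNA of the scaffolds was extracted with TRIzol, treated with DNase I and purified again on a column. RNA of the 2D cells went through the column kit alone, which has a DNase step of its own. Culture format, printing and extraction therefore changed together and cannot be told apart here.

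In 2D, MEC1 cells grow in suspension and have free access to medium. A hydrogel surrounds each cell with a matrix, through which nutrients, gases and secreted factors have to diffuse. Amino acid supply, oxygen and growth signals act through separate transcriptional programmes: ATF4 turns on amino acid synthesis and import when amino acids are short or the endoplasmic reticulum is stressed, the hypoxia-inducible factors turn on glycolysis when oxygen is low, and the immediate early factors of the AP-1 and EGR families respond within minutes to growth stimuli.

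Total counts ranged from 54810673 to 58272630 in the bioprinted samples and from 57152440 to 85968686 in those of 2D. Of 59050 gene symbols in the table, 51726 had at least 1 count, and 13463 passed the filter of a CPM, the count scaled to the size of its library, above 1 in at least 3 of the 9 samples. Levels are given below as CPM after normalisation by the trimmed mean of M-values (TMM), and differences as log2 fold changes of day 7 minus 2D with their standard error (SE), both from the quasi-likelihood test of edgeR, whose p-values were adjusted over the 13463 genes by the Benjamini-Hochberg procedure. A gene is said to have risen or fallen where its adjusted p was at most 0.05. Because CPM does not correct for gene length, levels are compared between samples and not between genes. In bulk RNA, fewer cells that express a gene and less RNA per cell cannot be told apart.

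The samples carried the identity of a B-cell line. The summed level of 18 B-cell markers was 15034 to 17330 CPM in 2D and 17356 to 19654 CPM at day 7, and 3 of the 18 rose while 2 fell. MS4A1, which encodes the B-cell surface antigen CD20, stood at 787, 855 and 882 CPM in 2D and at 1670, 1522 and 1379 CPM at day 7. Monocyte, stromal and erythroid markers were low. Of 18 monocyte and macrophage markers, S100A12 and CD68 were at 0 and a further 5 did not exceed 3 counts in any of the 6 samples, and the sum was 55.4 to 74.3 CPM in 2D and 16.5 to 24.3 CPM at day 7. Fibroblast and stromal markers summed to 10.7 to 11.5 CPM in 2D and 2.78 to 5.47 CPM at day 7, and erythroid and platelet markers to 0.346 to 0.810 CPM and 1.85 to 2.45 CPM. T-cell markers summed to 443 to 522 CPM and to 673 to 721 CPM, with LAT at 0 and CD3D, CD3G and CD8B at no more than 3 counts in each sample, and natural killer cell markers to 1044 to 1204 CPM and 1277 to 1398 CPM.

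In all, 5838 of the 13463 genes tested differed between day 7 and 2D, or 43.4%. Of these, 2985 rose (22.2% of the genes tested) and 2853 fell (21.2%), and the 3 samples of one group did not overlap those of the other in 8697 genes (64.6%). The falls were larger than the rises. The median log2 fold change was 0.87 among the genes that rose and -1.12 among those that fell. A change of at least 2-fold was found in 1114 genes that rose and 1641 that fell, one of at least 4-fold in 115 and 396, and one of at least 8-fold in 23 and 112. Another 856 called genes changed by less than 1.5-fold. The near-even split depends on the scaling: with libraries scaled by their total counts alone the median of all genes shifted to -0.16, and 2156 genes were called higher and 3580 lower. With so many genes called, the share of a gene list that rose or fell is read below against 22.2% and 21.2%. The median log2 fold change over all genes tested, -0.0039 under TMM, is the value against which the median of a list is set.

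**Figure D1:**
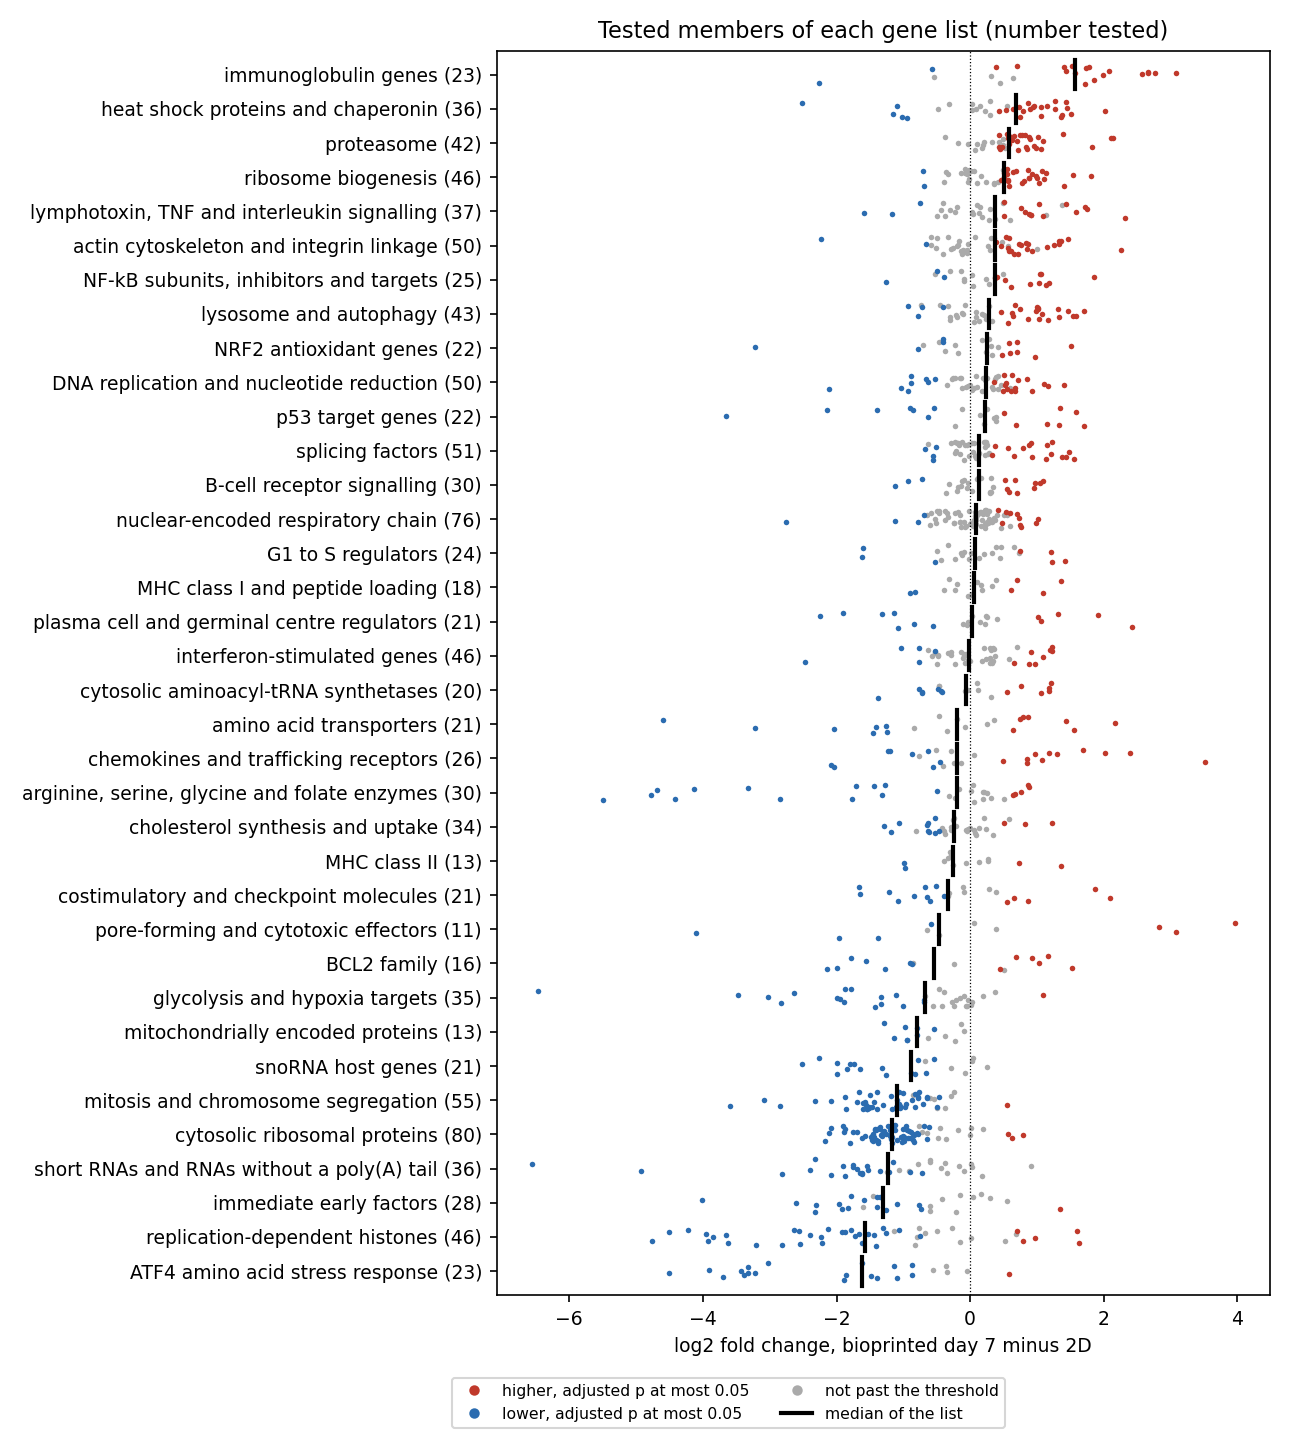
Log2 fold change of day 7 minus 2D (horizontal axis) for the tested members of 36 gene lists, one row per list, ordered by the median of the list (black bar), with the number tested in parentheses. Red and blue points are genes past the threshold (adjusted p no higher than 0.05), and grey points are the rest. The ATF4, histone and immediate early lists lie farthest to the left, with medians of -1.62, -1.58 and -1.31, and the immunoglobulin genes farthest to the right, with a median of 1.57.

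The ATF4 programme was lower at day 7. Of 23 tested genes of the ATF4 amino acid stress response, 18 fell and 1 rose, with a median log2 fold change of -1.62. ATF4 itself, the transcription factor of the programme, stood at 623, 613 and 617 CPM in 2D and at 202, 208 and 192 CPM at day 7. The groups did not overlap, and the level fell by 1.62 ± 0.14 (log2, SE, adjusted p = 7.2e-06). CHAC1, which degrades glutathione and is among the most ATF4-dependent genes known, had 64.4, 65.9 and 67.4 CPM in 2D and 2.72, 2.57 and 3.40 CPM at day 7. Its level was thus 22.7-fold lower (log2 fold change -4.51 ± 0.22, adjusted p = 1.2e-07). CTH, the enzyme that releases cysteine from cystathionine, went from 137, 147 and 128 CPM to 7.72, 9.88 and 9.73 CPM, 15.1-fold lower (adjusted p = 4.4e-06). DDIT3, which encodes the stress factor CHOP, was 3.72-fold lower, at 150 to 162 CPM in 2D against 39.8 to 43.7 CPM. The exception was HERPUD1, which takes part in the degradation of proteins of the endoplasmic reticulum. It rose by 0.58 ± 0.15 on the log2 scale, from 411 to 423 CPM to 530 to 694 CPM (adjusted p = 0.0071), and this call was lost without the second day 7 sample (adjusted p = 0.056).

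ATF4 binds together with C/EBP proteins to a composite element in the promoters of its targets. The element was searched as TGATGNAAN on both strands in the 250 bases before the start of each gene, where RefSeq (GRCh38.p14) gave a promoter. It was found in 4 of the 21 ATF4-list genes with a promoter (19.0%) and in 3.18% of all 27305 promoters of this length. Of the 17 of these list genes that fell, 3 held it (17.6%), as did 1.45% of the genes tested with a promoter. The list genes that fell thus held it no more often than the whole list. Over all tested genes, its share was 1.2% among those that rose and 1.86% among those that fell. The 2 promoters below are those of the members that fell with the smallest p among the ones holding the element, which is written in capitals. They lie at chr15:40953221-40953470 on the plus strand and at chr7:97872409-97872658 on the minus strand, and each is written 5′ to 3′ on the strand of its gene.
CHAC1: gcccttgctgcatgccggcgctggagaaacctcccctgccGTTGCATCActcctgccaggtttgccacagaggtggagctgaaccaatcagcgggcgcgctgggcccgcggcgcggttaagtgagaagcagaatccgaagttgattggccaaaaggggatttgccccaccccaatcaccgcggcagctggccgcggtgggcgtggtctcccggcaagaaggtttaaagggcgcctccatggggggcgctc
ASNS: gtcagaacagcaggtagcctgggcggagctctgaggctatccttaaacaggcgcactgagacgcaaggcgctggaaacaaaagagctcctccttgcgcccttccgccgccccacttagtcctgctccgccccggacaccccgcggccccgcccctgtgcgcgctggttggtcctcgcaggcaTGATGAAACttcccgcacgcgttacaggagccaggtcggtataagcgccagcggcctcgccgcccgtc
In CHAC1 the element lies on the reverse strand and starts 210 bases before the RefSeq start. In ASNS it lies on the forward strand, 68 bases before. The annotation used for counting starts CHAC1 further upstream, at 40952962, so that the promoter shown lies within the counted span of the gene. ASNS, asparagine synthetase, had 1.85, 1.37 and 1.72 CPM in 2D and 0.208, 0.164 and 0.228 CPM at day 7 (log2 fold change -3.03 ± 0.53, adjusted p = 0.00071). It shares 82.4% of its exonic bases with other annotated genes, so that most of its reads could not be assigned to a single gene and its level is uncertain.

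Enzymes that make arginine, serine and related amino acids moved in both directions. Among 30 tested genes of the arginine, serine, glycine and folate list, 13 fell, 5 rose and 12 did not pass the test (median -0.20). ASS1, argininosuccinate synthase, which allows a cell to make its own arginine, had 96.2, 96.3 and 93.0 CPM in 2D and 1.59, 2.72 and 2.00 CPM at day 7. It was 45.2-fold lower (log2 fold change -5.50 ± 0.24, adjusted p = 5.6e-08). PHGDH, the first enzyme of serine synthesis, had 20.6, 21.3 and 21.3 CPM in 2D and 0.0346, 1.70 and 1.24 CPM at day 7, with 1 day 7 sample far under the other two (log2 fold change -4.42 ± 0.68, adjusted p = 0.00029). GPT2, the mitochondrial alanine transaminase, was 7.19-fold lower, with 80.8 to 86.7 CPM against 10.04 to 13.1 CPM. SHMT2, which passes one-carbon units from serine to folate in mitochondria, was 3.41-fold lower, with 761 to 815 CPM against 219 to 243 CPM. ISYNA1, which makes inositol rather than an amino acid, was 17.6-fold lower. On the other side, ODC1, the rate-limiting enzyme of polyamine synthesis, rose 1.83-fold, from 255 to 298 CPM to 456 to 556 CPM (adjusted p = 0.00083).

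Amino acid transporters moved in both directions. Of 21 tested, 7 rose and 7 fell, with a median of -0.19. SLC7A5, the importer of large neutral amino acids at the cell surface, fell from 408, 437 and 366 CPM in 2D to 94.2, 88.1 and 113 CPM at day 7 (log2 fold change -2.04 ± 0.24, adjusted p = 5.0e-05). SLC7A11, the cystine and glutamate exchanger that is a target of both ATF4 and NRF2, was 9.29-fold lower, with 17.5 to 25.6 CPM against 1.33 to 3.76 CPM. Transporters of the lysosomal membrane were among those that rose. SLC36A1 went from 2.13, 2.41 and 3.18 CPM to 10.04, 11.9 and 12.8 CPM (4.50-fold, adjusted p = 3.5e-05), and SLC38A9, the lysosomal arginine sensor that acts on mTORC1, from 7.74 to 8.68 CPM to 19.3 to 24.4 CPM (2.71-fold, adjusted p = 4.4e-05). SLC43A2, a transporter of neutral amino acids, rose 2.93-fold. Cytosolic aminoacyl-tRNA synthetases, some of which are ATF4 targets, were divided too, with 6 of 20 higher and 7 lower (median -0.06). HARS and VARS, which charge the tRNAs of histidine and valine, rose 2.32-fold and 2.28-fold.

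**Figure D2:**
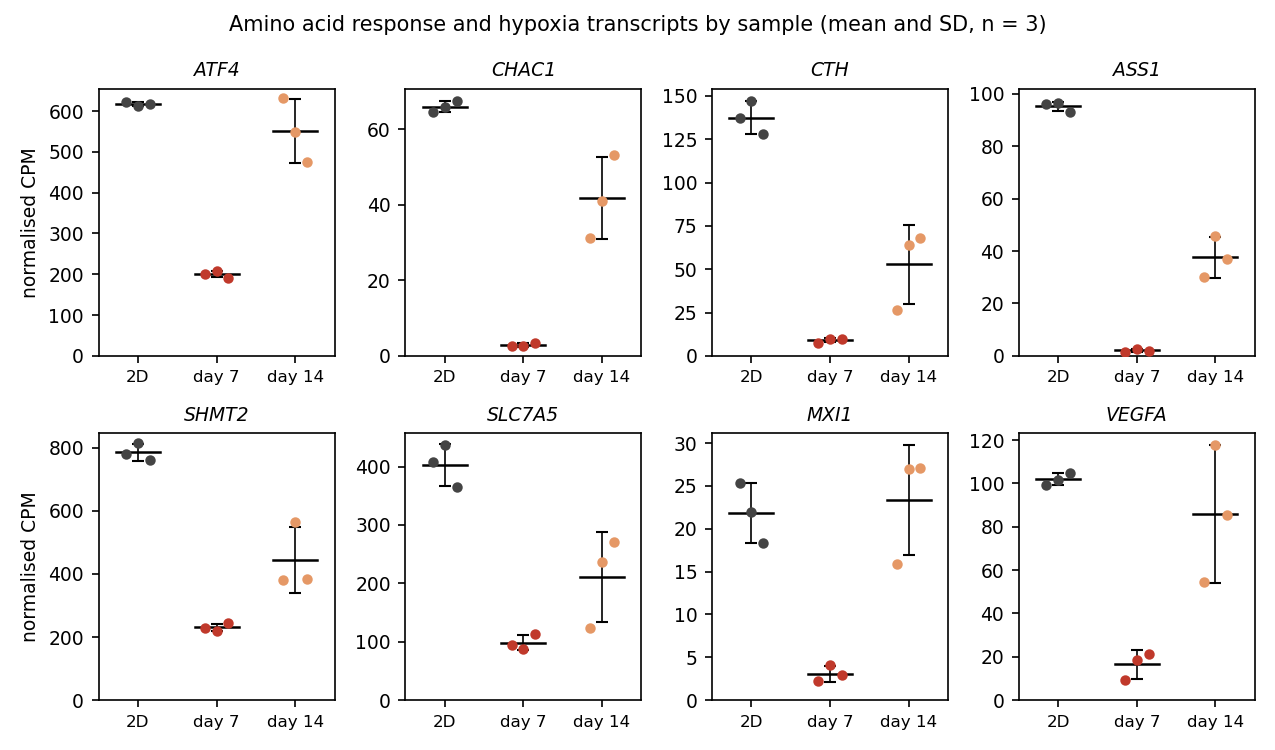
Normalised CPM (vertical axis, linear, from 0) of 8 transcripts in the 3 samples each of 2D culture, day 7 and day 14. Points are samples, and bars are the mean with its SD. In all 8 panels the 3 day 7 samples lie under the 3 samples of 2D, as for ASS1, at 1.59 to 2.72 CPM against 93.0 to 96.3 CPM.

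Most immediate early transcripts fell. Of 28 tested, 16 fell and 1 rose, with a median of -1.31. EGR1, a zinc finger factor induced by growth and antigen receptor signals, had 47.4, 52.6 and 50.6 CPM in 2D and 5.35, 2.08 and 1.90 CPM at day 7 (16.1-fold lower, adjusted p = 1.6e-05). JUN, a subunit of AP-1, had 58.5, 57.0 and 61.1 CPM in 2D and 16.7, 16.5 and 13.6 CPM at day 7 (3.78-fold lower, adjusted p = 8.5e-06). DUSP1, a phosphatase that shuts off MAP kinases, was 6.10-fold lower. MYC, which drives growth and cell division, had 488, 461 and 427 CPM in 2D and 74.8, 96.5 and 108 CPM at day 7. Its groups lay far apart, and it fell by 2.30 ± 0.21 on the log2 scale (adjusted p = 8.7e-06). PIM3, a serine/threonine kinase that favours survival, had 328, 324 and 230 CPM in 2D and 106, 75.8 and 92.5 CPM at day 7 (3.22-fold lower, adjusted p = 4.0e-05). BTG2, an inhibitor of proliferation, was the one member of the list that rose, from 99.5 to 102 CPM to 233 to 285 CPM (2.53-fold, adjusted p = 5.7e-05).

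Of 35 tested hypoxia targets and glycolytic genes, 17 fell, 1 rose and 17 did not pass the test, and the median was -0.68. Their summed level was 26022 to 28306 CPM in 2D and 18525, 23047 and 26114 CPM at day 7, so that the third day 7 sample lay within the range of 2D. VEGFA, the growth factor of blood vessels and a classical hypoxia target, had 99.4, 102 and 105 CPM in 2D and 9.15, 18.7 and 21.5 CPM at day 7 (6.20-fold lower, adjusted p = 5.3e-05). MXI1, an antagonist of MYC induced by hypoxia, went from 25.3, 22.0 and 18.3 CPM to 2.20, 4.05 and 2.98 CPM (7.10-fold lower, adjusted p = 1.5e-05). ADM, which encodes the vasodilator adrenomedullin, was lower too, at 2.92 to 3.22 CPM in 2D against 0.247 to 0.457 CPM. CA9, a carbonic anhydrase of hypoxic cells, stood at 2.13 to 2.64 CPM in 2D and was at 0 in 2 of the day 7 samples and at 0.0760 CPM in the third, too few reads for a fold. HK1, the housekeeping hexokinase, was the member that rose, from 121, 137 and 133 CPM to 241, 267 and 325 CPM (2.12-fold, adjusted p = 0.0023).

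Respiration genes of the nucleus and of mitochondrial DNA differed. Among 76 tested nuclear genes of the respiratory chain, 10 rose and 4 fell (median 0.09, and -0.07 with total counts as scaling), with ATP5F1B, the catalytic subunit of ATP synthase, at 1551 to 1685 CPM in 2D and 2831 to 3613 CPM at day 7 (2.03-fold, adjusted p = 0.00017). Of the 13 proteins encoded in mitochondria, 8 transcripts fell and none rose (median -0.80). MT-CO3, a subunit of cytochrome c oxidase, went from 1979, 2248 and 2024 CPM to 766, 876 and 914 CPM (2.45-fold lower, adjusted p = 0.00026), and MT-ND4 of complex I was 1.93-fold lower. Counts of mitochondrial genes made up 2.30% to 2.83% of a 2D library and 1.44% to 1.64% of a day 7 library. The fall of the mitochondrial transcripts was smaller, with a median of -0.35, once a trend over gene length had been removed. Cholesterol genes were mixed, with 10 of 34 lower and 3 higher (median -0.24). INSIG1, which holds the sterol-sensing SREBP factors back, was 2.09-fold lower, and HSD17B7, an enzyme of cholesterol synthesis, was 2.28-fold lower.

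The cell cycle was not lowered as a whole. Most genes of mitosis fell, while few of DNA replication did. Of 55 tested mitotic genes, 47 fell and 1 rose (median -1.09), and their summed level went from 6975 to 7260 CPM in 2D to 3396 to 4407 CPM at day 7, that is to 47.8% to 62.1% of the 2D mean. CENPF, a kinetochore protein, had 160, 150 and 173 CPM in 2D and 30.7, 22.8 and 13.7 CPM at day 7 (7.17-fold lower, adjusted p = 8.7e-06). CENPE, the motor that attaches kinetochores to microtubules, fell further, from 67.4, 72.7 and 77.2 CPM to 9.93, 4.47 and 3.52 CPM (12.1-fold, adjusted p = 2.1e-05). CCNB2, a mitotic cyclin, had 226, 229 and 213 CPM in 2D and 89.0, 75.2 and 70.7 CPM at day 7 (2.84-fold lower, adjusted p = 1.4e-05), and SMC4, a condensin subunit, was 4.24-fold lower, with 25.1% of its exonic bases shared with other genes. The first day 7 sample was the highest of the 3 for all 4 of these genes. KPNA2, an importin that carries proteins into the nucleus, was the member that rose (1.47-fold).

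Late cell cycle genes are recognised by the cell cycle genes homology region, TTTGAA. It was present on either strand in 27 of the 47 mitotic list members with a promoter (57.4%) and in 13.6% of all promoters. Of the 40 of these members that fell, 21 held it (52.5%), as did 8.47% of the genes tested with a promoter. The members that fell thus held it no more often than the whole list. Over all tested genes, its share was 7.33% among those that rose and 11.3% among those that fell. The promoters of CCNB2 (chr15:59104896-59105145 on the plus strand) and SMC4 (chr3:160399400-160399649 on the plus strand) are shown, as those of the 2 members that fell with the smallest p among those with a match, again with the match in capitals and 5′ to 3′ on the strand of the gene (RefSeq, GRCh38.p14).
CCNB2: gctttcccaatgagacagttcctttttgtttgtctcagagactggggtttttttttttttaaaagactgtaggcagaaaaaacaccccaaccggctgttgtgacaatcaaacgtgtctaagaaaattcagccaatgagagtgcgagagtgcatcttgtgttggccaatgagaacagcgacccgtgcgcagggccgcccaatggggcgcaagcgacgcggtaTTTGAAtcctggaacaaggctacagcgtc
SMC4: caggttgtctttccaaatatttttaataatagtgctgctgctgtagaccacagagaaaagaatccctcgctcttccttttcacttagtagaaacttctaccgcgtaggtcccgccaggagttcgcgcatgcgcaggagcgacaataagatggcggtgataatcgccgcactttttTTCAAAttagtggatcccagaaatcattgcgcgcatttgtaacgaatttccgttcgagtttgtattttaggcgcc
The match starts 29 bases before CCNB2, on the forward strand, and 75 bases before SMC4, on the reverse strand. A short motif of this kind is a description of the sequence and not proof of a bound factor.

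For DNA replication and nucleotide reduction, 16 of 50 genes rose, 8 fell and 26 did not pass the test (median 0.24). The summed level was 7139 to 7415 CPM in 2D and 7890 to 8456 CPM at day 7. UHRF1, which carries DNA methylation through replication, had 49.7, 58.0 and 55.2 CPM in 2D and 155, 132 and 143 CPM at day 7 (2.64-fold, adjusted p = 0.00040). Yet CDT1, which loads the replicative helicase onto origins, fell 4.32-fold, from 136, 130 and 88.1 CPM to 40.6, 17.5 and 23.9 CPM (adjusted p = 0.00012), and RFC1, the large subunit of the clamp loader, 2.05-fold. Among 24 regulators of the G1 to S transition, 4 rose and 3 fell. CCND2, cyclin D2, rose from 60.8 to 64.4 CPM to 117 to 165 CPM (2.32-fold, adjusted p = 0.00013). CDKN2D, an inhibitor of CDK4 and CDK6, fell from 59.6, 63.0 and 58.1 CPM to 20.1, 18.4 and 20.5 CPM (3.06-fold, adjusted p = 1.0e-05). Targets of p53 were evenly divided, with 7 of 22 higher and 7 lower (median 0.22). TP53I3, an oxidoreductase induced by p53, rose 3.25-fold.

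**Figure D3:**
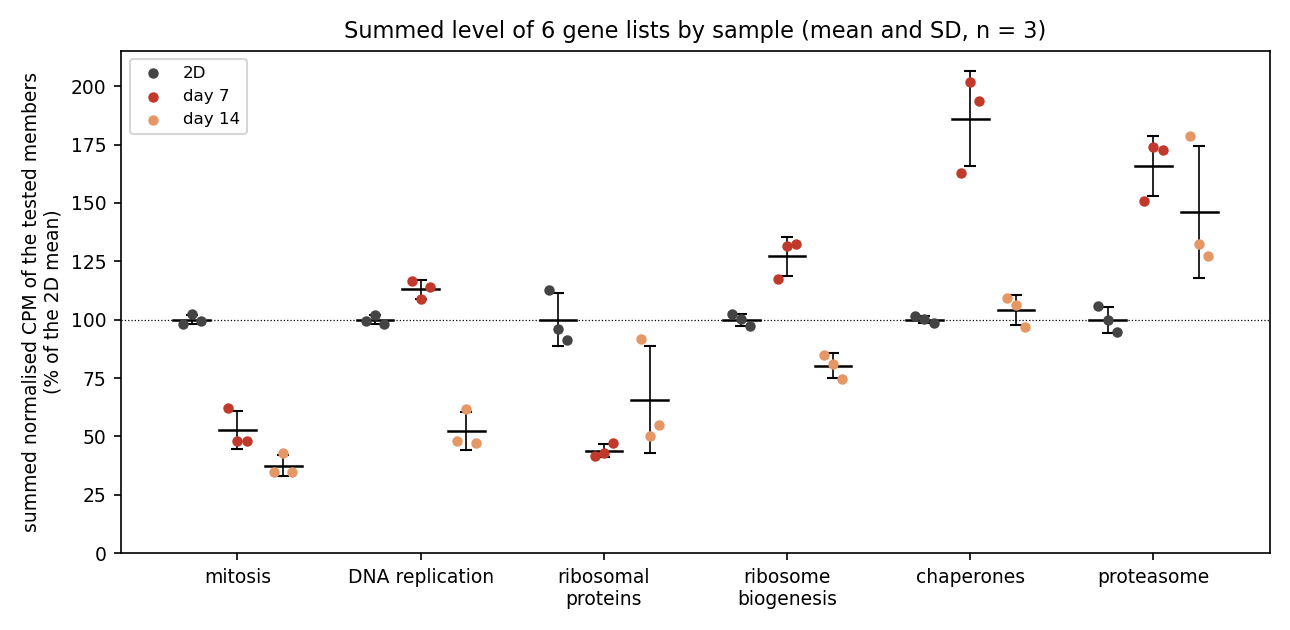
Summed normalised CPM of the tested members of 6 gene lists in each sample, as a percentage of the mean of the 3 samples in 2D (vertical axis, linear, from 0). Points are samples, and bars are the mean with its SD. At day 7 the mitotic genes lie at 47.8% to 62.1% of the 2D mean and the ribosomal proteins at 41.5% to 47.0%, while the other 4 lists lie above 100%.

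Ribosomal proteins and the factors that assemble ribosomes moved in opposite directions. Of 80 tested cytosolic ribosomal protein genes, 67 fell and 3 rose (median -1.17), and of 46 ribosome biogenesis factors, 25 rose and 2 fell (median 0.51). RPS3, a protein of the small subunit, had 1270, 1064 and 1084 CPM in 2D and 347, 340 and 367 CPM at day 7 (3.24-fold lower, adjusted p = 2.7e-05). RPL12, of the large subunit, had 436, 349 and 343 CPM in 2D and 88.8, 79.4 and 91.4 CPM at day 7 (4.34-fold lower, adjusted p = 2.4e-05). Many processed pseudogenes resemble the genes of this family, so that their reads may be divided between loci. RPL7L1, a relative of a ribosomal protein, rose 1.48-fold, a call that was lost without the third 2D sample (adjusted p = 0.051). Among the assembly factors, NOP14 had 42.9, 44.6 and 42.5 CPM in 2D and 124, 135 and 119 CPM at day 7 (2.91-fold, adjusted p = 1.7e-05), RRP12 rose 2.64-fold and PNO1 2.15-fold. All 3 serve the maturation of the small subunit. NOP58, a core protein of the box C/D small nucleolar ribonucleoproteins, fell 1.62-fold, from 241 to 259 CPM to 147 to 158 CPM.

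Several other classes of transcripts moved along with the ribosomal proteins, some of them short or without a poly(A) tail. Of 21 host genes of small nucleolar RNAs, 15 fell and none rose (median -0.89), such as TAF1D, at 78.6 to 84.3 CPM in 2D and 15.9 to 19.0 CPM at day 7 (4.78-fold lower, adjusted p = 5.6e-06). Transcripts of replication-dependent histone genes end in a stem-loop in place of a poly(A) tail. Of 89 such genes 46 passed the filter, and of these 30 fell and 5 rose (median -1.58). Of 2275 short or untailed RNAs only 36 passed it, and of these 21 fell and none rose (median -1.23). A member can pass the filter through the 2D samples alone, so that these counts can lean towards falls. The median of the short RNAs without a filter, far smaller in size, is given at the end. With all genes divided by exon length into 5 groups of equal size, the shortest, up to 1834 bases, had a median log2 fold change of -0.24, and the longer groups had medians of 0.02, 0.12, 0.10 and -0.04. Without the trend over gene length the median of the ribosomal proteins was -0.92. The recovery of short and untailed RNAs depends on how RNA is extracted and primed. The extraction differed between the groups, and its part in these values was not tested.

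Most genes of protein folding and breakdown rose. Among 36 heat shock proteins and chaperonin subunits, 21 rose and 5 fell (median 0.68), and among 42 proteasome genes, 28 rose and none fell (median 0.58). HSPA8, the constitutive HSP70 chaperone, had 710, 744 and 724 CPM in 2D and 2621, 3166 and 3017 CPM at day 7 (4.04-fold, adjusted p = 2.9e-06). Its co-chaperone DNAJA1 went from 220, 215 and 209 CPM to 511, 654 and 602 CPM (2.75-fold, adjusted p = 2.0e-05). CCT3 and CCT6A, subunits of the ring that folds actin and tubulin, rose 2.85-fold and 2.70-fold. DNAJC2, a chaperone bound to the ribosome, fell 2.23-fold. PSMD2, a subunit of the base of the proteasome cap, had 260, 270 and 275 CPM in 2D and 1018, 1243 and 1275 CPM at day 7 (4.39-fold, adjusted p = 3.6e-06). PSMD1, its neighbour in the cap, rose 4.32-fold, and PSME3, the activator subunit PA28 gamma, 3.52-fold. For each of these genes that rose, the lowest day 7 sample lay above the highest of 2D.

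The heat shock factor binds paired inverted repeats in the promoters of its targets, searched here as the heat shock element GAANNTTC, which reads the same on both strands. It was found in 9 of the 33 list members with a promoter (27.3%) and in 5.85% of all promoters. Of the 19 of these members that rose, 6 held it (31.6%), as did 4.08% of the genes tested with a promoter. Over all tested genes, its share was 4.46% among those that rose and 4.6% among those that fell, so that it did not follow direction. The promoters of HSPA8 (chr11:123062137-123062386 on the minus strand) and DNAJA1 (chr9:33025023-33025272 on the plus strand) are those of the members that rose with the smallest p and hold it. They are written in the same manner, with matches in capitals.
HSPA8: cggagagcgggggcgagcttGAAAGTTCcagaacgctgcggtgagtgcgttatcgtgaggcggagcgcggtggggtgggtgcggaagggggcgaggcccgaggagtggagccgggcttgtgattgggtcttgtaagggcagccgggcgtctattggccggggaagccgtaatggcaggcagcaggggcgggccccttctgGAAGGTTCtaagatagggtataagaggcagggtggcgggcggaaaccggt
DNAJA1: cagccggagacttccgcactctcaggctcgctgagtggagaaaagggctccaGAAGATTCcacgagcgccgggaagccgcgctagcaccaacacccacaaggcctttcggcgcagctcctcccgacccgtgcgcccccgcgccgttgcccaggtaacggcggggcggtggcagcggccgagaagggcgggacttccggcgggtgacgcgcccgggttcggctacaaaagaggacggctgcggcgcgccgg
HSPA8 has 2 matches, which start 230 and 50 bases before the RefSeq start, and DNAJA1 has 1, at 198 bases. The annotation used for counting starts HSPA8 further upstream, at 123062335, so that its match at 50 bases lies within the counted span of the gene.

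Of 43 genes of lysosomes and autophagy, 20 rose, 4 fell and 19 did not pass the test (median 0.29). ATP6V0D1, a subunit of the proton pump that acidifies lysosomes, went from 119, 108 and 97.0 CPM to 366, 356 and 329 CPM (3.25-fold, adjusted p = 8.1e-06). CTSA, a lysosomal carboxypeptidase, rose 2.92-fold and ATG7, which activates the conjugation of autophagy proteins, 2.99-fold, with 29.6% and 32.2% of their exonic bases shared with other genes. ASAH1, the acid ceramidase, fell 1.91-fold. Of 22 NRF2 antioxidant genes, 7 rose and 4 fell (median 0.26). NQO1, a quinone reductase, rose 2.85-fold, from 17.1 to 20.1 CPM to 43.0 to 59.7 CPM. Among 51 splicing factors 16 rose and 4 fell, with a median of 0.14 that was -0.02 with total counts as scaling. HNRNPM rose 2.94-fold and HNRNPA1 fell by 0.68 on the log2 scale, and both bind nascent transcripts.

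Immunoglobulin transcripts took a larger part of each bioprinted library. They made up 1.24% to 1.31% of the counts in 2D and 4.47% to 5.23% at day 7. Of 389 immunoglobulin genes only 23 passed the filter, and of these 17 rose and 2 fell (median 1.57). A member can pass the filter through the bioprinted samples alone, where the share of these transcripts was larger. The count and the median therefore describe the tested members and not the whole family. IGKC, the constant region of the kappa light chain, had 2434, 2225 and 1967 CPM in 2D and 12024, 14622 and 15250 CPM at day 7 (6.32-fold, adjusted p = 5.6e-06). The variable segment IGKV4-1 kept pace, from 1951, 1769 and 1587 CPM to 9623, 11742 and 12393 CPM (6.36-fold, adjusted p = 4.0e-06), and the heavy chain segment IGHV4-59 rose 2.96-fold. Reads of a rearranged receptor align to the germline segments most like it, and segments of a family share sequence, so that the smaller segments are uncertain. IGHV3-23, which fell, stood at only 1.63 to 1.76 CPM in 2D and 0.128 to 0.692 CPM at day 7, and its call was lost with the replicate block and the length trend together (adjusted p = 0.050). IGHG3, a gamma constant region, went from 22.9, 25.1 and 21.1 CPM to 178, 168 and 124 CPM (6.79-fold, adjusted p = 1.2e-06). JCHAIN, which links the units of secreted IgM and IgA, had 526, 507 and 489 CPM in 2D and 1827, 2004 and 1875 CPM at day 7 (3.75-fold, adjusted p = 7.5e-06). The wider list of plasma cell and germinal centre regulators, to which JCHAIN belongs, did not move together. Of 21 tested, 5 rose and 7 fell (median 0.03). Their summed level, however, was 3605 to 3736 CPM in 2D and 5863 to 6323 CPM at day 7.

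Of 30 genes of antigen receptor signalling, 9 rose and 3 fell. The median of 0.14 turned to -0.02 with total counts as scaling. RASGRP3, which activates RAS behind the receptor, rose 2.06-fold and PTPN6, the inhibitory phosphatase SHP-1, 1.96-fold, and the inhibitory receptor CD22 fell from 537, 562 and 528 CPM to 310, 214 and 226 CPM (adjusted p = 0.00074). Of 25 NF-kB genes, 11 rose and 3 fell (median 0.37). CHUK, the kinase IKK alpha of the noncanonical pathway, went from 14.6, 17.9 and 16.8 CPM to 48.9, 76.3 and 52.99 CPM (3.61-fold, adjusted p = 4.6e-05). TRAF1, an adaptor that NF-kB itself induces, rose 2.20-fold and CYLD, a deubiquitinase that restrains the pathway, 2.26-fold. REL, a subunit common in B cells, was 2.39-fold lower, with 50.7% of its exonic bases shared with other genes.

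Signals between cells moved in both directions. Of 26 tested chemokines and trafficking receptors, 11 rose and 8 fell, and the median was -0.19. CCL22, which attracts T cells that carry CCR4, had 59.9, 60.1 and 46.1 CPM in 2D and 515, 828 and 556 CPM at day 7. The groups lay far apart, with a rise of 11.4-fold (log2 fold change 3.51 ± 0.30, adjusted p = 6.8e-06). CXCR3, the receptor of the interferon-induced chemokines, had 53.3, 45.9 and 42.5 CPM in 2D and 215, 189 and 168 CPM at day 7 (4.04-fold, adjusted p = 5.6e-06). SELPLG, the ligand of P-selectin, fell from 145, 142 and 133 CPM to 30.9, 35.0 and 36.8 CPM (4.09-fold, adjusted p = 2.5e-05). Of 37 genes of lymphotoxin, TNF and interleukin signalling, 14 rose and 3 fell (median 0.38). LTB, lymphotoxin beta, by which B cells organise lymphoid tissue, had 96.6, 81.8 and 79.0 CPM in 2D and 458, 434 and 390 CPM at day 7 (4.98-fold, adjusted p = 3.9e-05). Its partner LTA went from 223, 200 and 177 CPM to 597, 705 and 686 CPM (3.31-fold, adjusted p = 1.8e-05). JAK1, a kinase that many cytokine receptors share, rose 2.71-fold, and IL7R, the chain that binds interleukin-7, fell 3.01-fold.

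**Figure D4:**
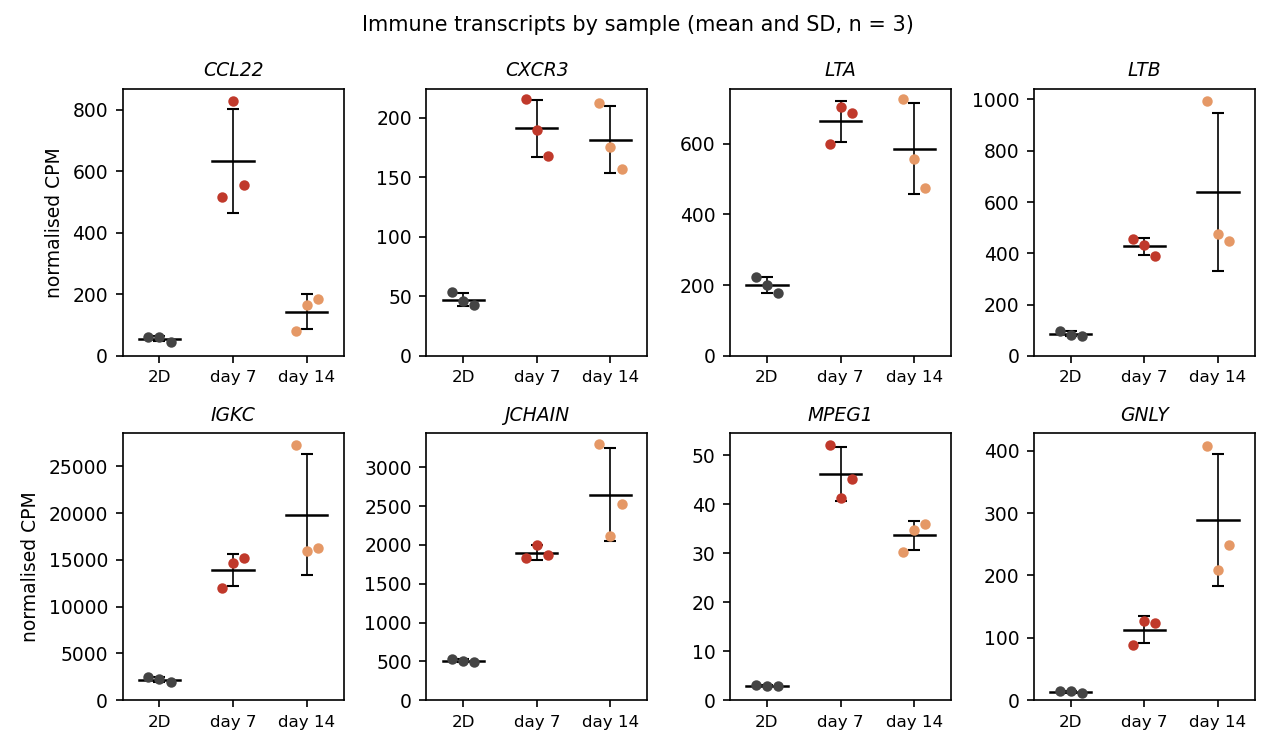
Normalised CPM (vertical axis, linear, from 0) of 8 immune transcripts in the 3 samples each of 2D culture, day 7 and day 14. Points are samples, and bars are the mean with its SD. In every panel the 3 day 7 samples lie above the 3 samples of 2D, as for CCL22, at 515 to 828 CPM against 46.1 to 60.1 CPM.

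Molecules that B cells show to T cells fell more often than they rose. Of 21 costimulatory and checkpoint genes, 10 fell and 5 rose (median -0.34). TNFRSF14, the receptor HVEM, had 200, 200 and 212 CPM in 2D and 83.4, 55.3 and 53.7 CPM at day 7 (3.18-fold lower, adjusted p = 2.3e-05). VSIR, the checkpoint VISTA, was 2.12-fold lower, and CD48, which binds receptors on natural killer and T cells, 1.79-fold. HAVCR2, which encodes TIM-3, rose at a low level, from 0.316 to 0.497 CPM to 1.597 to 1.99 CPM. For antigen presentation, 2 of 13 class II genes rose and 2 fell (median -0.26), and 4 of 18 class I genes rose and 2 fell (median 0.06, and -0.09 with total counts as scaling). HLA-DMB, which helps load peptides onto class II, rose 2.58-fold, and 32.5% of its exonic bases lie in other genes. Interferon-stimulated genes did not move together. Of 46, 8 rose and 5 fell with a median of -0.02. MX1, an antiviral GTPase, rose 1.95-fold, and XAF1, which binds the apoptosis inhibitor XIAP, fell 2.05-fold (adjusted p = 0.011), with 69.9% of its exonic bases in other genes. Their summed level was 6673 to 7135 CPM in 2D and 9841, 7143 and 6096 CPM at day 7, with the first day 7 sample well above the other two.

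A few effector genes better known from other blood cells changed strongly. Among 11 pore-forming and cytotoxic genes, 3 rose and 4 fell. MPEG1, perforin-2, a pore-forming protein that acts on bacteria inside cells, had 3.13, 2.88 and 2.89 CPM in 2D and 52.1, 41.3 and 45.2 CPM at day 7. It rose 15.5-fold (log2 fold change 3.96 ± 0.17, adjusted p = 5.6e-08). GNLY, the antimicrobial protein granulysin of cytotoxic lymphocytes, had 14.5, 14.1 and 11.5 CPM in 2D and 88.5, 126 and 124 CPM at day 7 (8.45-fold, adjusted p = 5.6e-06), and GZMH, a granzyme, rose from 0.165 to 0.367 CPM to 1.37 to 2.38 CPM. CST7, cystatin F, an inhibitor of the cathepsins that activate granzymes, fell from 54.1, 49.0 and 46.4 CPM to 2.87, 2.85 and 2.97 CPM (17.2-fold, adjusted p = 5.6e-08). The sums of T-cell and natural killer markers, given above, were higher at day 7, but GNLY is itself one of the natural killer markers. Of 7 tested T-cell markers 3 rose and 1 fell, and of 8 tested natural killer markers 3 rose and 2 fell. TRAC alone made up 311 to 356 CPM of the T-cell sum in 2D and 460 to 488 CPM at day 7. CD3D and CD3G had no more than 3 counts in each sample of either group.

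Regulators of cell death changed on both sides. Of 16 tested BCL2 family genes, 6 rose and 7 fell (median -0.55). BCL2, the antiapoptotic protein typical of CLL, had 148, 146 and 144 CPM in 2D and 54.0, 51.4 and 43.1 CPM at day 7 (2.95-fold lower, adjusted p = 4.7e-05). Its relatives rose: MCL1 went from 80.4, 90.1 and 87.1 CPM to 198, 193 and 189 CPM (2.25-fold, adjusted p = 7.8e-05), and BCL2L1, which encodes BCL-XL, rose 2.87-fold, with 42.2% of its exonic bases shared. On the proapoptotic side, BBC3, which encodes PUMA, had 18.1, 17.0 and 13.2 CPM in 2D and 2.72, 3.23 and 4.98 CPM at day 7 (4.42-fold lower, adjusted p = 0.00011), while BAX rose from 91.8, 80.9 and 73.8 CPM to 138, 126 and 132 CPM (1.61-fold, adjusted p = 0.0041). BIRC7, an inhibitor of apoptosis also called livin, fell further than the other genes named with a fold. It had 27.7, 27.7 and 26.4 CPM in 2D and 0.208, 0 and 0.209 CPM at day 7 (log2 fold change -7.59 ± 0.56, adjusted p = 3.6e-06). With a day 7 level so near 0, the size of this fitted fold is uncertain.

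Of 50 genes of the actin cytoskeleton and its linkage to integrins, 22 rose, 2 fell and 26 did not pass the test (median 0.37). FLNA, filamin A, which crosslinks actin filaments, had 141, 180 and 183 CPM in 2D and 805, 782 and 816 CPM at day 7 (4.77-fold, adjusted p = 5.8e-06). TLN1, talin, which connects integrins to actin, rose from 282, 310 and 358 CPM to 961, 867 and 782 CPM (2.75-fold, adjusted p = 2.0e-05). HCLS1, the cortactin of blood cells, had 293, 299 and 275 CPM in 2D and 664, 630 and 636 CPM at day 7 (2.23-fold, adjusted p = 3.3e-05). ITGAX, the integrin alpha X chain CD11c, fell from 12.6, 12.4 and 17.4 CPM to 0.848, 5.13 and 3.06 CPM (adjusted p = 0.0026).

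Among called genes without overlap and with a mean of at least 10 CPM in the higher group, those that rose most were MPEG1, FUT7, CCL22, MIR22HG, ANXA1, GNLY, CD180, IGHG3, BMP3 and IGKV4-1, between 6.36-fold and 15.5-fold. FUT7, the fucosyltransferase that completes selectin ligands, rose from 1.35 to 1.60 CPM to 13.3 to 26.1 CPM, but 55.8% of its exonic bases lie in other genes. ANXA1, an anti-inflammatory annexin, had 1.14, 0.950 and 1.14 CPM in 2D and 7.82, 11.0 and 15.1 CPM at day 7. CD180, a receptor that modulates toll-like signals in B cells, had 4.32, 3.52 and 4.76 CPM in 2D and 32.7, 24.6 and 31.6 CPM at day 7, and BMP3, a secreted factor of the TGF-beta family, was 6.61-fold higher. Under the same minimum, the genes that fell most included BIRC7, INHBE, ASS1, C20orf204, CHAC1, PHGDH, EFEMP2, ISYNA1 and CST7, between 17.2-fold and 193-fold. The 193-fold of BIRC7 is a fitted value that rests on a day 7 level near 0. INHBE, a secreted inhibin subunit that ATF4 is known to induce, had 12.1, 14.2 and 13.5 CPM in 2D and 0.294, 0.201 and 0.190 CPM at day 7 (57.4-fold lower, adjusted p = 2.9e-06). EFEMP2, which encodes the extracellular protein fibulin-4, was 19.1-fold lower, and C20orf204 22.8-fold. One further entry among them combined the loci of a small RNA family and is not given. HBA1 rose from no more than 3 counts in each 2D sample, and its fold is therefore not given.

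MIR22HG, the host transcript of miR-22 on the minus strand of chromosome 17, had 0.858, 1.11 and 1.08 CPM in 2D and 9.97, 14.1 and 8.92 CPM at day 7 (10.8-fold, adjusted p = 7.5e-06). The mature miR-22-3p (chr17:1713914-1713935, minus strand, RefSeq, GRCh38.p14) is shown because it is the product for which this host is known, with the seed, bases 2 to 8, in capitals.
hsa-miR-22-3p: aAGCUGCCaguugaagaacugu
The libraries measured the host transcript and not the mature miRNA, so that its level is unknown.

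The day 14 samples show which of these levels were still found a week later. Day 14 was tested against day 7 in the same fit, where 3785 of the 13463 genes tested differed (28.1%). Of these, 1951 were higher at day 14 and 1834 lower, and the counts of the lists are read against them. As the day 7 samples enter both comparisons, values are given side by side and no relation between the comparisons is drawn. Of the 23 ATF4-list genes, 16 were higher at day 14 than at day 7 and none lower, with a median difference of 1.35 (log2). CHAC1 stood at 31.3, 40.9 and 53.1 CPM, ASS1 at 30.2, 45.8 and 36.8 CPM, and ATF4 at 632, 548 and 476 CPM, against 613 to 623 CPM in 2D. VEGFA had 54.3, 118 and 85.5 CPM. Of the 80 ribosomal protein genes, 38 were higher at day 14 than at day 7 and none lower. Their sum was 20245 to 37051 CPM, and the first day 14 sample lay apart from the other two in this sum. Without it, 26 of the 80 were higher and 3 lower, and of the 23 ATF4-list genes 19 were higher and none lower.

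Members of other lists were lower at day 14 than at day 7. Of the 50 replication genes, 45 were lower at day 14 than at day 7 and 1 higher, and their sum was 3433 to 4475 CPM, under both the 2D and the day 7 samples. UHRF1 was at 21.5, 46.3 and 30.1 CPM. Of the 55 mitotic genes 23 were lower at day 14, of 46 ribosome biogenesis factors 35, and of 36 chaperones 21. Without the first day 14 sample these counts were 45, 20, 36 and 23. HSPA8 had 1525, 1479 and 1228 CPM and CCL22 80.7, 167 and 185 CPM, between their levels in 2D and at day 7. Several levels did not pass the test between the time points: CXCR3 had 212, 176 and 156 CPM (adjusted p = 0.75), MYC 76.2, 128 and 119 CPM (adjusted p = 0.44), LTA 727, 556 and 474 CPM (adjusted p = 0.45) and IGKC 27284, 15977 and 16230 CPM (adjusted p = 0.079). Day 7 and day 14 samples shared the extraction protocol, so that differences between them do not carry that confounder.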

How the data were processed

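RNA of MEC1 cells was sequenced after SMART-Seq v4 library preparation from a low RNA input, as single reads. The authors trimmed reads with Trimmomatic (version 0.39), aligned them to GRCh38 with STAR (version 2.5.3a) and assigned them to genes with featureCounts (version 1.6.4). The values deposited by the authors are raw counts per gene symbol, not normalised, with the summed exon length of each gene in bases. The strand setting and the handling of reads with several alignments are not given in the sources used here. The labels give the culture format and day that define each group.

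Genes with more than 1 CPM in at least 3 samples were retained. Counts of all 9 samples were scaled by TMM and fitted together with edgeR (version 4.0.16, R version 4.3.3), so that the 3 groups share 1 estimate of the spread, and its quasi-likelihood test compared day 7 with 2D and day 14 with day 7. Benjamini-Hochberg adjusted p-values of up to 0.05 were called. The members of the gene lists and the comparison itself were chosen with earlier results of these data known. Within each list, the called members with the smallest p were named, with the first called member of the opposite direction, and beyond these the 10 largest and the 10 smallest log2 fold changes among called genes without overlap and with at least 10 CPM in the higher group, and transcripts that the study measured by RT-qPCR. Some items are not reported here. Gene positions and shared exonic bases came from an annotation of GRCh38, and promoters from RefSeq (GRCh38.p14).

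The test was tried on simulated counts for day 7 against 2D over 13168 genes, of which 200 were changed. It recovered 57.6% of the 2-fold and 95.0% of the 4-fold changes, and 5.59% of its calls were false. In the data 43.4% of the genes tested were called, a far larger share than was changed in the simulation. These rates therefore describe the simulated setting and not this comparison. Alternatives were other scalings, DESeq2 (version 1.42.0), other filters, a replicate block, removal of a trend over gene length, a minimum fold and leaving out each sample. Samples with the same replicate number did not deviate together, with correlations of -0.035, -0.018 and -0.100, so that numbers were not treated as pairs. The chi-square of counts between replicates of a group was 22.5 to 82.0 per gene, so that no pair agreed within sampling noise. GC content was not analysed here.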

Additional observations from a re-analysis of the deposited data

Results flagged for a closer look

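Of the 118 genes named above, 67 differed between day 14 and day 7 in the test of that difference (edgeR's quasi-likelihood test, adjusted p at most 0.05), 37 higher at day 14 and 30 lower. Over all 13463 genes tested, 3785 differed (28.1%), 1951 higher at day 14 and 1834 lower. Values are log2 fold changes of day 14 minus day 7, and causes were not tested. Groups of 3 samples are too small to single out a deviating sample.

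Both comparisons use the day 7 samples, and genes named for a low or high day 7 level are likely to differ from it in the other direction at day 14, so that no relation between the comparisons is read from these values. In the ATF4 and amino acid lists the difference was 4.16 for ASS1, 3.85 for CHAC1, 2.96 for PHGDH and 2.54 for CTH. There it was also 2.06 for SLC7A11, 1.76 for ASNS, 1.58 for GPT2 and 1.46 for ATF4. DDIT3 had 1.35, SLC7A5 1.10 and SHMT2 0.94. The difference was 1.83 for ISYNA1, a list member that makes inositol, and 3.96 for INHBE, which is in none of these lists. Among hypoxia targets it was 4.12 for ADM, 2.92 for MXI1 and 2.38 for VEGFA, and 4.52 for CA9, a fitted value that rests on a day 7 level near 0. For regulators of survival and growth it was 2.71 for BBC3, 1.95 for CDKN2D, 1.63 for DUSP1, 1.02 for PIM3 and 0.79 for BCL2. For BIRC7 it was 4.80, again a fitted value that rests on a day 7 level near 0. Of the remaining genes higher at day 14, it was 3.12 for CST7, 2.07 for C20orf204, 2.06 for EFEMP2, 1.39 for VSIR, 1.22 for SELPLG, 0.98 for ASAH1, 0.91 for RPL12, 0.81 for RPS3, 0.68 for CD48 and 0.51 for TNFRSF14. It was 3.25 for GZMH, 1.35 for GNLY, 0.48 for JCHAIN and 0.40 for IGHV4-59.

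Of the genes lower at day 14 than at day 7, the difference was -2.14 for CCL22, -2.13 for UHRF1, -1.65 for VARS, -0.72 for CCND2 and -0.92 for KPNA2. For ribosome biogenesis it was -1.40 for RRP12, -1.39 for NOP14 and -0.92 for PNO1. In protein folding and breakdown it was -1.25 for PSMD1, -1.19 for CCT6A, -1.06 for HSPA8, -1.03 for PSMD2, -1.02 for PSME3, -0.83 for CCT3, -0.69 for ATG7 and -0.43 for DNAJA1. In metabolism it was -1.19 for SLC36A1, -0.74 for ODC1, -0.62 for SLC38A9, -0.57 for HARS and -0.47 for ATP5F1B. In signalling, the cytoskeleton and RNA binding it was -0.93 for FLNA, -0.88 for TRAF1, -0.87 for CHUK, -0.86 for FUT7, -0.60 for HNRNPM, -0.53 for CYLD, -0.47 for RASGRP3 and -0.46 for MPEG1. It was -0.55 for HNRNPA1.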

How the results depend on the processing

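Of 127 genes named by the rule or shown with a promoter, 3 lost their call in 1 alternative each and none changed direction. HERPUD1 and RPL7L1 lost it with 1 sample left out, and IGHV3-23 with the replicate block and the length trend together (adjusted p = 0.050). The counts of 2985 genes higher and 2853 lower stayed within 1.5 times under every scaling, filter and test: 2924 and 2930 with DESeq2 size factors, 2156 and 3580 with total counts, 3167 and 3198 with the DESeq2 Wald test, 2881 and 2954 with edgeR's own filter, 2596 and 2874 without a filter, 3800 and 3897 with only the 6 samples. Adding the replicate block gave 2939 and 2821 and changed no other call among these genes. Leaving out 1 sample gave 2051 to 3603 higher and 2227 to 3569 lower, with the highest counts without the first day 14 sample. A minimum of 2-fold left 1114 higher and 1641 lower.

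List medians shifted with total counts as scaling, in step with the median of all genes (-0.16): BCL2 family -0.70, ATF4 -1.78, ribosomal proteins -1.33, ribosome biogenesis 0.35, mitochondrially encoded -0.96, immediate early -1.46, chaperones 0.52, proteasome 0.42, immunoglobulins 1.41, short RNAs -1.39, snoRNA hosts -1.05. Antigen receptor signalling and splicing factors turned from 0.14 to -0.020 and -0.022. TMM without immunoglobulin, ribosomal protein and mitochondrial genes gave -0.93 for the snoRNA hosts. Without the length trend the medians were -0.62 for the BCL2 family, -0.92 for ribosomal proteins, -0.35 for mitochondrially encoded, 2.11 for immunoglobulins, -0.98 for histones, -0.48 for short RNAs and -0.94 for snoRNA hosts. With the replicate block as well they were -0.61, -0.91, -0.35, 2.10, -1.10, -0.52 and -0.93. Without a filter, barely counted members entered, and the BCL2 median was -0.11, the immunoglobulin median 0 and the short RNA median -0.16, and edgeR's own filter gave -0.9995 for short RNAs. Leaving out 1 sample gave -0.62 to -0.47 for the BCL2 family, 0.59 to 0.75 for chaperones, -2.11 to -1.22 for histones, -1.45 to -0.88 for short RNAs and -0.99 to -0.89 for snoRNA hosts. Causes were not tested. The counts of day 14 against day 7 without the first day 14 sample were computed after seeing the data. Total counts were 54662799 to 85968686 per sample, and the median SE of a log2 fold change was 0.22, so that changes well under 1.5-fold were near the limit of what 3 samples could show.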
